A study of Mus musculus with 2 samples.

Results

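The 10 genes described here are the feedback inhibitors of the ERK pathway and a pair of the Ets transcription factors that the pathway induces, as measured by digital gene expression (DGE) tags in the mouse cell lines GC-1spg and GC-2spd (ts), with 1 library each. They were chosen by symbol, and are the phosphatases *Dusp4*, *Dusp5* and *Dusp6*, the Sprouty genes *Spry1*, *Spry2* and *Spry4*, the Sprouty-related genes *Spred1* and *Spred2*, and the Ets genes *Etv4* and *Etv5*. All 10 had a tag in both libraries, among 14450 genes with a tag in at least 1 of them. GC-1spg was derived from type B spermatogonia of a mouse of 10 days with the plasmid pSV3-neo, which carries the SV40 large T antigen. GC-2spd (ts) is a spermatocyte line from a mouse of 6 weeks, made with SV40 large T antigen. Both were grown without further treatment in DMEM, to which 10% FBS was added and sodium bicarbonate at 1.5 g/L. Each line is a single immortalised line, the sources used here do not name the strain of the mice, and with 1 library per line the difference between stages cannot be told apart from the difference between these cultures.

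ERK is the last kinase of the cascade that runs from receptor tyrosine kinases through Ras, Raf and MEK. Active ERK switches on genes whose products restrain the same cascade, so that their mRNAs are often read as a record of pathway output: Dusp proteins remove the phosphates from ERK, and Sprouty and Spred proteins act further up, at the level of Ras and Raf. *Etv4* and *Etv5* encode PEA3 group Ets factors that are induced by FGF and GDNF signalling, and *Etv5* is known in the testis for its role in keeping spermatogonial stem cells.

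DGE counts tags of CATG and the 17 bases after it, 21 bases in all, taken at *Nla*III sites in polyadenylated transcripts. Levels are given as the copies of all tags of a gene per 1000000 clean tags (TPM). They are not divided by gene length, since a tag stands for a transcript and not for a stretch of it. The tag with the most copies for each gene is printed below, 5′ to 3′ on the gene's strand, since it is what was read in these libraries. Capitals mark the *Nla*III site, except in *Spred2*, where the 1 capital marks the base by which the libraries differed.
*Dusp4*: CATGcaaggaaaaaggtttat
*Dusp5*: CATGtgaatgtgaagagaagc
*Dusp6*: CATGatgttcgtggtgtaaag
*Spry1*: CATGtctgaatataacatatc
*Spry2*: CATGgcacagtcacaaaatat
*Spred1*: CATGtaattggacgtatcaga
*Spred2* in GC-1spg: catggtaacagaacctaacGa
*Spred2* in GC-2spd (ts): catggtaacagaacctaacCa
*Etv4*: CATGtgggcggcagctggggg
*Etv5*: CATGcatttgcttcttttcca

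In GRCm38 these tags lie at chr8:34819480-34819500 (*Dusp4*), chr19:53542320-53542340 (*Dusp5*), chr10:99267399-99267419 (*Dusp6*), chr3:37644483-37644503 (*Spry1*), chr2:117182186-117182206 (*Spred1*) and chr11:20023731-20023751 (*Spred2*) on the plus strand. On the minus strand they lie at chr14:105892298-105892318 (*Spry2*), chr11:101769857-101769877 (*Etv4*) and chr16:22381414-22381434 (*Etv5*). All are in the 3′ UTR, at the last CATG site of a transcript. The tags of *Spry4*, which lies on chromosome 18 at 38586247 to 38601415 on the minus strand, are not printed.

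The clean tags add up to 5072149 for GC-1spg and 4726808 for GC-2spd (ts), so that 1 copy is worth 0.197 TPM and 0.212 TPM. Tags that matched 1 gene in sense orientation made up 54.7% and 57.9% of the copies. Markers went against the label of germ cells: 14 of 15 germ cell markers were listed in neither library, *Ddx4*, *Dazl* and *Sycp3* among them, and the remaining 1, *Spo11*, had 2 tags in GC-1spg against 0 in GC-2spd (ts). Of the fibroblast markers 6 of 7 were listed, with a summed 14540 tags in GC-1spg against 7634 in GC-2spd (ts); *Thy1* was not listed. That sum is mostly *Col1a1*, with 10465 and 2425 tags, which was called lower in GC-2spd (ts). *Fn1* (2351 and 1211) was lower at a log2 ratio of -0.86, not called here but called lower with the TMM scaling described below. *Vim* (984 and 2897) and *Col3a1* (50 and 120) were called higher. *Col1a2* (605 and 907) and *Pdgfra* (85 and 74) were not called, and the median log2 ratio of the list was 0.29. Of the Sertoli cell markers 5 of 8 were listed, with 1128 and 184 tags. *Wt1* had 620 and 0 tags and *Trf* 445 and 0, while *Gata4*, with 29 and 138, was called in the opposite direction. *Sox9* had 29 and 46, and *Fshr* was listed in neither library. All 4 markers of peritubular myoid cells were listed, with 66 and 576 tags, of which *Acta2* gave 50 and 555. Of the Leydig cell markers 2 of 6 were listed, with 4 and 5 tags. The part of these marker differences in the values of the ERK genes was not tested. In RNA of whole cultures, fewer cells of a type and less RNA per cell cannot be told apart.

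Of the 10 genes, *Spry1*, *Etv5* and *Dusp5* were higher and *Dusp6* was lower in GC-2spd (ts), and 6 passed no call. A call needed a false discovery rate (FDR) of at most 0.001 in the two-sided Audic-Claverie test, adjusted by Benjamini and Hochberg over 14450 genes, together with a log2 ratio of 1 or more in either direction. The test compares these 2 libraries, not the cell types. The same rule called 19.5% of all genes, 11.7% higher and 7.84% lower. Of the called genes 59.8% were higher, and 47.2% when the libraries were scaled by TMM, the trimmed mean of M values. Among the 9594 genes with at least 30 tags over both libraries, a depth that all 10 ERK genes reached, it called 26.2%, 16.1% higher and 10.1% lower. Beside these shares, 4 of 10 is not read as a result about the group of genes. The median log2 ratio of the 10 genes was -0.0006 with 0.5 tags added to both counts, and that of all genes was 0.13. Their summed level was 303.2 TPM in GC-1spg against 269.5 TPM in GC-2spd (ts), at a log2 ratio of -0.17 (95% interval -0.28 to -0.06). The sign of this sum turned with exact matches only, to 0.0648. Without *Dusp6* the log2 ratio of the sum was 0.20 (0.08 to 0.32), and 0.03 with TMM scaling. All intervals here are exact binomial intervals at 95% and cover counting error only. They do not cover the spread between cultures, which was not measured. In edgeR's exact test with an assumed biological coefficient of variation of 0.2, *Spry1* and *Dusp6* were the genes of the 10 still called, and with 0.4 there were 0.

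**Figure D1:**
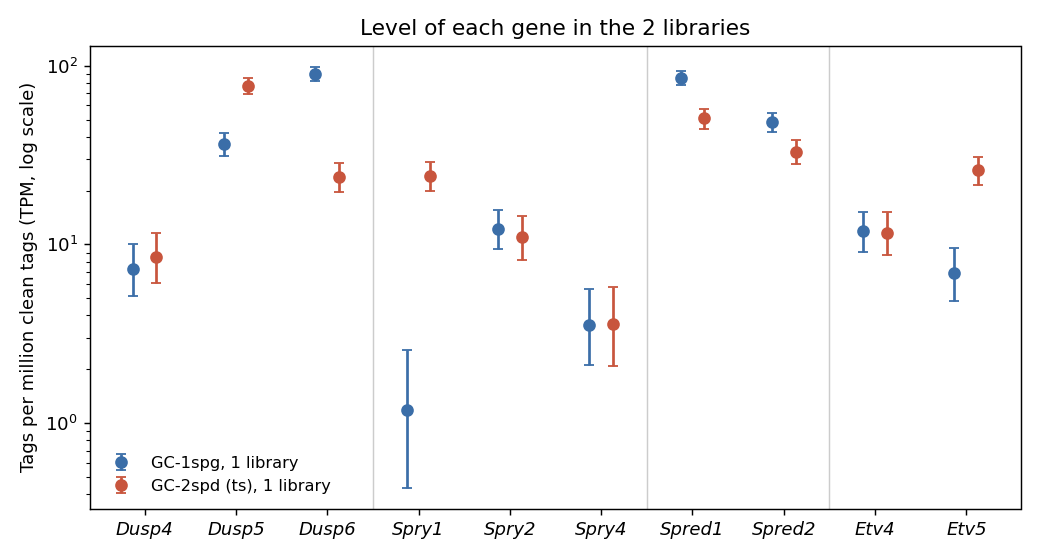
Levels of the 10 genes in TPM on a log axis, with GC-1spg and GC-2spd (ts) as separate points and exact 95% intervals for counting error as bars, 1 library per cell line. The intervals of the libraries stay apart for *Dusp5*, *Dusp6*, *Spry1*, *Spred1*, *Spred2* and *Etv5*, and overlap for *Dusp4*, *Spry2*, *Spry4* and *Etv4*.

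*Dusp6* encodes the cytoplasmic phosphatase that is specific for ERK. It had 456 tags in GC-1spg against 113 in GC-2spd (ts), or 89.9 TPM (81.8 to 98.5) and 23.9 TPM (19.7 to 28.7). The level in GC-1spg was thus 3.76-fold that in GC-2spd (ts), with a log2 ratio of -1.91 (-2.22 to -1.61) and an FDR of 1.93e-43. The gene spans chr10:99263231-99267489. Its tags came from several sites of the same transcript, and each of the 3 tags with at least 10 copies was lower in GC-2spd (ts). The tag printed above had 392 and 87 copies. The next 2 sites upstream in the 3′ UTR gave 39 and 20 copies and 21 and 6 copies. The site nearest the 3′ end held 86.4% of the copies in GC-1spg against 77.0% in GC-2spd (ts). Antisense tags at *Dusp6*, 336 in GC-1spg against 80 in GC-2spd (ts), were counted apart and are not in these values.

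*Dusp5* encodes a nuclear phosphatase that binds ERK and holds it in the nucleus. It went the other way, with 185 tags in GC-1spg against 364 in GC-2spd (ts), or 36.5 TPM (31.4 to 42.1) and 77.0 TPM (69.3 to 85.3). The difference was 2.11-fold (1.76 to 2.53), a log2 ratio of 1.08 with an FDR of 2.19e-16. The lower end of its interval lies under the 2-fold limit. With TMM scaling, which moved every log2 ratio by -0.17, the value was 0.90 and the gene was not called. Nearly all of it came from 1 tag, with 183 and 357 copies. An annotated antisense transcript, AC137853.2, overlaps the start of the gene and had 0 tags in both libraries.

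*Dusp4* encodes a nuclear phosphatase with a wider choice of MAP kinases. It had 37 and 40 tags, or 7.29 TPM (5.14 to 10.1) in GC-1spg against 8.46 TPM (6.05 to 11.5) in GC-2spd (ts). The log2 ratio was 0.21 (-0.47 to 0.90), an interval that takes in a level up to 1.87-fold higher in GC-2spd (ts). A second tag in the coding sequence, with 8 and 9 copies, was as even as the main tag, with 29 and 31.

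Summed over the 3 phosphatases, the level was 134 TPM in GC-1spg against 109 TPM in GC-2spd (ts), with a log2 ratio of -0.29 (-0.46 to -0.12). The sum hid an exchange of its members. *Dusp6* made up 67.3% (63.6 to 70.8) of the phosphatase tags in GC-1spg against 21.9% (18.4 to 25.7) in GC-2spd (ts), while *Dusp5* went from 27.3% (24.0 to 30.8) to 70.4% (66.3 to 74.3). *Dusp4* gave 5.46% (3.87 to 7.44) and 7.74% (5.58 to 10.4). These shares do not depend on how the libraries are scaled.

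*Spry1* encodes one of the Sprouty proteins, inhibitors of growth factor signalling that are themselves induced by it. It had 6 tags in GC-1spg against 114 in GC-2spd (ts), or 1.18 TPM (0.434 to 2.57) and 24.1 TPM (19.9 to 29.0). This was the widest difference among the 10 genes, 20.4-fold (9.08 to 56.7), with a log2 ratio of 4.35 and an FDR of 2e-27. The 6 copies in GC-1spg set the width of the interval. The tag printed above had 6 and 108 copies, and a second tag further upstream in the 3′ UTR had 0 and 6. *Gm42922*, annotated on the opposite strand at the start of *Spry1*, had 0 and 3 tags.

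Neither of the other Sprouty genes was called. *Spry2* had 62 and 52 tags, or 12.2 TPM (9.37 to 15.7) and 11.0 TPM (8.22 to 14.4), with a log2 ratio of -0.15 (-0.71 to 0.40). *Spry4* had 18 and 17 tags, or 3.55 TPM (2.10 to 5.61) and 3.60 TPM (2.10 to 5.76), with a log2 ratio of 0.02 (-1.03 to 1.06). The interval of *Spry4* takes in a 2-fold difference in either direction. *Spry4* was lower in GC-2spd (ts) with TMM, at -0.15, so that it has no direction.

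The Sprouty genes together had 86 and 183 tags, or 16.96 and 38.7 TPM, which is a log2 ratio of 1.19 (0.81 to 1.58) that rests on *Spry1*. In GC-1spg *Spry2* gave 72.1% (61.4 to 81.2) of the Sprouty tags and *Spry1* 6.98% (2.60 to 14.6). In GC-2spd (ts) *Spry1* gave 62.3% (54.8 to 69.3) and *Spry2* 28.4% (22.0 to 35.5). The leading Sprouty mRNA thus differed between the libraries, while *Spry2* itself was not called.

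**Figure D2:**
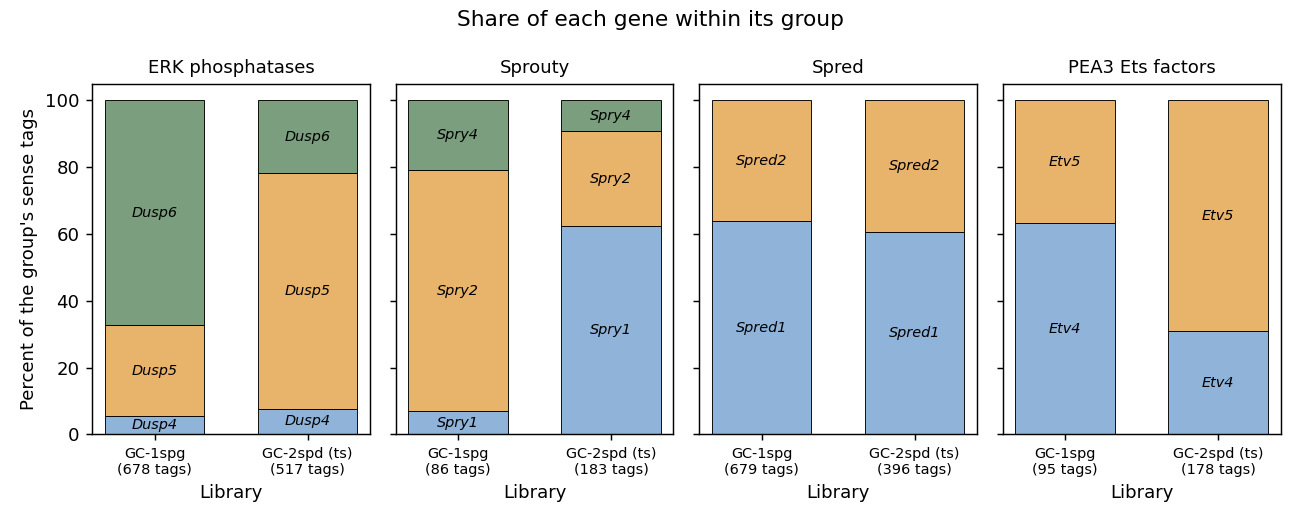
Share of each gene, in percent of the tags of its family, in GC-1spg and GC-2spd (ts), for the phosphatases, the Sprouty, the Spred and the PEA3 group genes, as stacked bars from 0 to 100%. *Dusp6* leads the phosphatases in GC-1spg with 67.3% and *Dusp5* in GC-2spd (ts) with 70.4%; the Spred bars are nearly alike.

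*Spred1* and *Spred2* encode membrane-bound relatives of the Sprouty proteins that bring the Ras inhibitor neurofibromin to the membrane. Both were lower in GC-2spd (ts) by less than 2-fold and were not called. *Spred1* had 434 and 240 tags, or 85.6 TPM (77.7 to 94.0) in GC-1spg against 50.8 TPM (44.6 to 57.6) in GC-2spd (ts). Its log2 ratio was -0.75 (-0.99 to -0.52) with an FDR of 2.54e-10, so that only the fold limit was missed. All 6 of its tags with at least 10 copies were lower in GC-2spd (ts), with log2 ratios from -0.998 to -0.64. They are spread over 1 long 3′ UTR. The site nearest the end gave 196 and 110 copies, and the eighth site from the end still gave 76 and 43. The site nearest the end held 45.2% and 45.8% of the copies, so the main site took nearly the same part of the tags in both libraries. Tags of 1 gene share their source and are not replicates.

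*Spred2* had 245 and 156 tags, or 48.3 TPM (42.4 to 54.7) and 33.0 TPM (28.0 to 38.6), with a log2 ratio of -0.55 (-0.85 to -0.25) and an FDR of 0.000561. Its value rests on a tag that the libraries carry in different versions. The reference tag had 0 copies in GC-1spg against 143 in GC-2spd (ts), and the version with the change C20G, counted from 1 at the first base of the tag with the reference base first, had 227 copies in GC-1spg against 0 in GC-2spd (ts). When only exact matches were counted, *Spred2* had 15 and 156 tags at a log2 ratio of 3.48, the opposite direction, and was called higher. Without either version, 18 and 13 tags were left and the log2 ratio was -0.37, a setting chosen after these values were seen. The main tag of every other gene of the 10 was listed without a mismatch in both libraries.

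The Spred genes together gave 134 TPM in GC-1spg against 83.8 TPM in GC-2spd (ts), at a log2 ratio of -0.68 (-0.86 to -0.50). *Spred1* gave 63.9% (60.2 to 67.5) of the Spred tags in GC-1spg against 60.6% (55.6 to 65.4) in GC-2spd (ts), intervals that overlap.

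*Etv5* had 35 tags in GC-1spg against 123 in GC-2spd (ts), or 6.90 TPM (4.81 to 9.60) and 26.02 TPM (21.6 to 31.0). It was 3.77-fold higher in GC-2spd (ts) (2.57 to 5.66), with a log2 ratio of 1.91 and an FDR of 3.62e-13. The main tag had 35 and 114 copies, and 2 further tags of the 3′ UTR were listed in GC-2spd (ts) alone, with 7 and 2 copies. Its close relative *Etv4* was not called. It had 60 and 55 tags, or 11.8 TPM (9.03 to 15.2) and 11.6 TPM (8.77 to 15.1), with a log2 ratio of -0.02 (-0.58 to 0.53). *Etv4* gave 63.2% (52.6 to 72.8) of the tags of the pair in GC-1spg against 30.9% (24.2 to 38.2) in GC-2spd (ts). The pair summed to 18.7 and 37.7 TPM, which is a log2 ratio of 1.01 (0.64 to 1.38) that rests on *Etv5*. With TMM scaling the log2 ratio of the pair was 0.83.

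**Figure D3:**
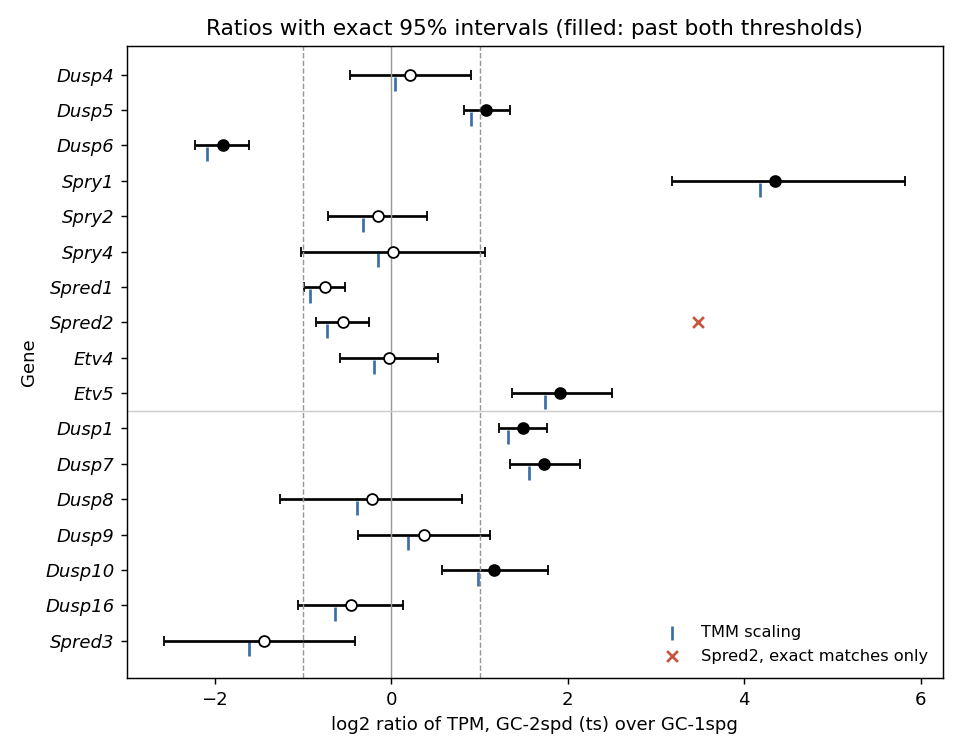
Log2 ratio of GC-2spd (ts) over GC-1spg with exact 95% intervals for counting error, for the 10 genes and, under the grey line, for their 7 paralogs listed in both libraries; filled points were called, dashed lines mark a log2 ratio of 1 in either direction, bars below the points give the value with TMM scaling, and the cross gives *Spred2* from exact matches only. *Spry1* lies at 4.35, *Etv5* at 1.91, *Dusp5* at 1.08 and *Dusp6* at -1.91, while the 6 genes not called lie between -0.75 and 0.21.

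The order of the levels differed between the libraries. In GC-1spg *Dusp6* and *Spred1* led, with overlapping intervals, followed by *Spred2* and *Dusp5*, each apart from its neighbours. *Spry2*, *Etv4*, *Dusp4*, *Etv5*, *Spry4* and *Spry1* came after them in that order, and neighbours among these 6 had overlapping intervals. In GC-2spd (ts) *Dusp5* led, then *Spred1*, and both stood apart from the next gene. *Spred2*, *Etv5*, *Spry1* and *Dusp6* followed with overlapping neighbours, then *Etv4*, *Spry2* and *Dusp4*, again overlapping. *Spry4* was the lowest there, apart from *Dusp4*. *Spry1* moved from rank 10 to rank 5 and *Dusp6* from rank 1 to rank 6.

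**Figure D4:**
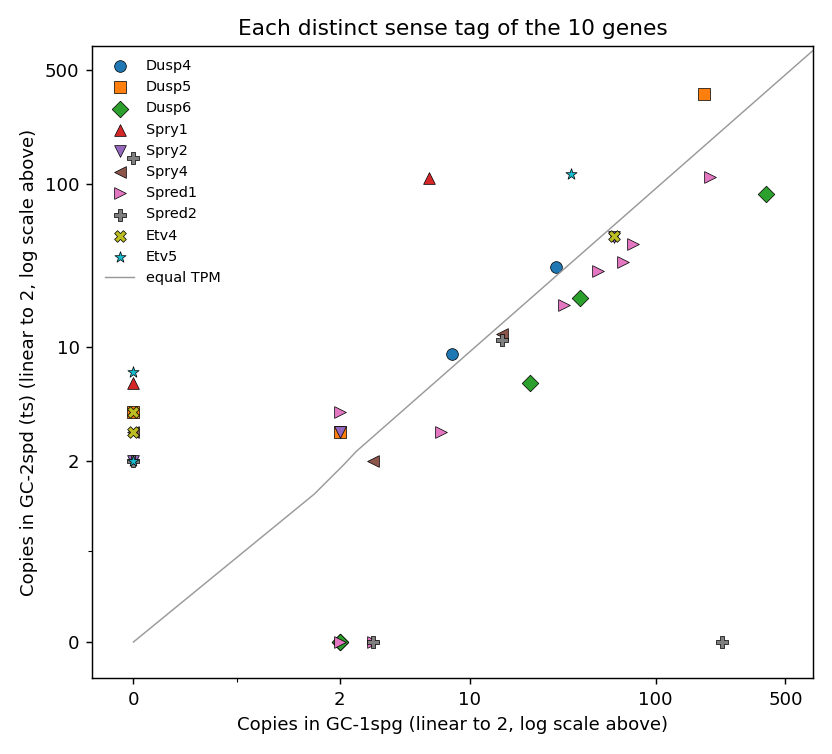
Copies of every sense tag of the 10 genes in GC-1spg (x axis) and GC-2spd (ts) (y axis), on axes that are linear to 2 copies and logarithmic above, with tags unlisted in a library at 0 and 1 colour and mark per gene. The tags of *Dusp6* and *Spred1* with at least 10 copies lie on 1 side of the line of equal TPM, and the 2 versions of the *Spred2* tag, with 227 and 0 and with 0 and 143 copies, lie on opposite axes; the main tags of *Spry2* and *Etv4* overlap.

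Of the 10 paralogs of these genes 8 were listed. The shares called were 11.7% higher and 7.84% lower over all genes, and 16.1% and 10.1% with at least 30 tags. Beside these shares, 3 paralogs were higher and 0 lower in GC-2spd (ts). The higher ones were all phosphatases, as were the uncalled *Dusp8*, *Dusp9* and *Dusp16*. *Dusp1*, an immediate early gene, had 158 and 414 tags at a log2 ratio of 1.49 (1.22 to 1.77). *Dusp7*, the closest relative of *Dusp6*, had 71 and 220 tags at a log2 ratio of 1.73 (1.34 to 2.14), the direction opposite to that of *Dusp6*. *Dusp10*, which acts on p38 and JNK, had 36 and 75 tags at a log2 ratio of 1.16 (0.57 to 1.78). With TMM scaling it stood at 0.99 and lost its call. No call was made for *Dusp8* with 20 and 16 tags, *Dusp9* with 30 and 36, or *Dusp16* with 62 and 42. *Spred3* had 32 and 11 tags, at a log2 ratio of -1.44 (-2.58 to -0.41) that did not pass the FDR limit. *Etv1* had 0 and 3 tags, and *Dusp2* was not listed. No transcript named *Spry3* was found in the annotation used, so no tag could be assigned to that gene. It is counted as not listed here and in the total over all pathway lists below.

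The lists of other pathway genes are described from the receptors down. Each count is to be read beside the 11.7% of all genes called higher and the 7.84% called lower. Among genes with at least 30 tags over both libraries these shares were 16.1% and 10.1%. Of the FGF receptor genes 4 of 6 were listed, with 1 higher and 0 lower. *Fgfr2* had 15 and 156 tags, or 2.96 and 33.0 TPM, with a log2 ratio of 3.48 (2.71 to 4.35). *Fgfr1* had 207 and 375 tags at a log2 ratio of 0.96 (0.71 to 1.21), just under the fold limit. Of the genes that activate Ras or link it to receptors 13 of 14 were listed, with 2 higher and 0 lower. These were *Sos2*, an exchange factor for Ras, with 22 and 61 tags at a log2 ratio of 1.57 (0.85 to 2.35), and *Rasgrp3*, another, with 0 and 55 tags. The latter was at least 4.09-fold higher, against the 95% Poisson limit, taken one-sided, of an unseen copy in GC-1spg for each distinct tag listed in GC-2spd (ts). The most abundant of the list, *Nras*, had 631 and 849 tags and was not called, at 0.53 (0.38 to 0.68).

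Of the 7 genes that switch Ras off, 2 were higher and 0 lower. *Rasa1* had 58 and 163 tags at a log2 ratio of 1.59 (1.15 to 2.05), and *Rasa3* had 65 and 179 with 1.56 (1.15 to 1.996). Both encode GTPase activating proteins. *Nf1*, which encodes neurofibromin, the partner of the Spred proteins, had 213 and 185 tags at a log2 ratio of -0.10 (-0.39 to 0.19). Of the kinases Raf, MEK and ERK and their scaffolds 14 of 15 were listed, with 2 higher and 0 lower. Neither was a kinase: *Lamtor3*, a scaffold for MEK and ERK at late endosomes, had 281 and 685 tags at a log2 ratio of 1.39 (1.19 to 1.59), and *Pebp1*, an inhibitor of Raf, had 127 and 419 with 1.82 (1.53 to 2.12). *Map2k2*, which encodes MEK2 and had the most tags of the list, had 2127 and 2364 at a log2 ratio of 0.25 (0.17 to 0.34). *Mapk3*, which encodes ERK1, had 285 and 373 tags at a log2 ratio of 0.49 (0.26 to 0.72), under the fold limit.

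The list of ERK substrates holds 16 genes of kinases and nuclear factors that ERK phosphorylates, with *Srf* included as a partner of such factors. All 16 were listed, with 7 higher and 1 lower. These stand beside 11.7% and 7.84% of all genes and 16.1% and 10.1% of genes with at least 30 tags. Under TMM 4 were higher and 1 lower. The kinases among the higher ones were *Rps6ka3* with 155 and 339 tags (log2 ratio 1.23), *Mknk1* with 15 and 64 (2.19) and *Mknk2* with 222 and 458 (1.15). The transcription factors were *Srf* with 84 and 248 tags (1.66), its partner *Elk1* with 31 and 71 (1.30), *Etv6* with 136 and 284 (1.16) and *Etv3* with 57 and 112 (1.08). *Mknk2*, *Etv6* and *Etv3* were the 3 not called under TMM. *Ets2* was the lower one, with 494 and 122 tags, or 97.4 and 25.8 TPM, and a log2 ratio of -1.92 (-2.21 to -1.63), close to that of *Dusp6*. *Elk4*, with 288 and 206 tags, was not called at -0.38 (-0.65 to -0.12).

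Other genes known to be induced by ERK were called in both directions. All 13 were listed, with 3 higher and 3 lower. These stand beside 11.7% and 7.84% of all genes and 16.1% and 10.1% of genes with at least 30 tags. *Fosl1* is among the uncalled with 2 and 2 tags. When sense matches were preferred over antisense ones, it had 249 and 615 tags and was called higher, at 1.41. *Phlda1* had 401 and 1008 tags at a log2 ratio of 1.43 (1.26 to 1.60), and the immediate early genes *Egr1* and *Fos* had 190 and 502 tags (1.50) and 16 and 58 tags (1.96). *Ier3* had 682 and 47 tags at a log2 ratio of -3.76 (-4.22 to -3.33), *Epha4* had 111 and 12 (-3.11) and *Flrt3*, a membrane protein of the FGF response, had 66 and 2 (-4.94). *Myc*, with 898 and 678 tags, was not called at -0.30 (-0.45 to -0.16). *Egr1*, *Fos* and *Phlda1* were thus higher in GC-2spd (ts), as were *Spry1*, *Dusp5* and *Etv5*. *Ier3*, *Epha4* and *Flrt3* were higher in GC-1spg, as was *Dusp6*. With 1 library per line every called gene falls on either side, so a shared direction does not group these genes. Whether they vary together was not tested.

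Of the genes that GDNF and *Etv5* are known to act on in spermatogonia, with the GDNF receptors, 6 of 7 were listed, with 0 higher and 4 lower in GC-2spd (ts), beside 7.84% of all genes lower and 10.1% of those with at least 30 tags. *Bcl6b* had 36 and 2 tags at a log2 ratio of -4.07 (-7.17 to -2.11) and *Id4* had 38 and 7 with -2.34 (-3.75 to -1.16). *Pou3f1*, with 94 and 0 tags, was at least 9.57-fold lower, and *Cxcr4*, with 22 and 0, at least 4.32-fold lower, against the same kind of limit. The receptor gene *Ret* had 0 and 9 tags and was not called, and *Gfra1* was listed in neither library. Over all pathway lists, paralogs included and without the 10 genes themselves, 81 of 88 genes were listed and 28 were called (34.6%), beside 19.5% of all genes and 26.2% of those with at least 30 tags. Of the 28, 20 were higher and 8 lower, and under TMM 16 were higher and 8 lower. The median log2 ratio of the 81 was 0.49 beside 0.13 over all genes.

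**Figure D5:**
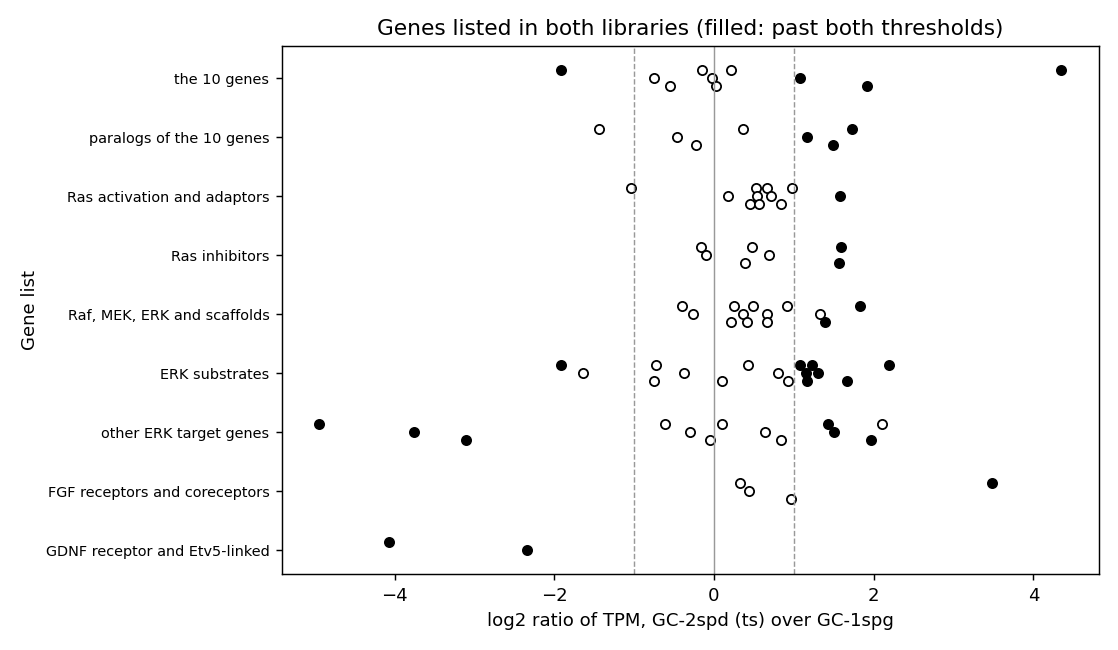
Log2 ratio of GC-2spd (ts) over GC-1spg for each gene listed in both libraries, 1 row for the 10 genes and 1 per pathway list, with called genes filled and uncalled genes open, dashed lines at a log2 ratio of 1 in either direction, and points shifted vertically to keep them apart. Of the ERK substrates 7 filled points lie to the right and 1, *Ets2* at -1.92, to the left; *Bcl6b* at -4.07 and *Id4* at -2.34 are the GDNF and *Etv5* linked genes that had tags in both libraries.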

How the data were processed

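DGE libraries were made with *Nla*III and *Mme*I from total RNA (average RIN 8.9 per the labels), 1 library for each line. After taking out adaptors, tags of low quality and tags seen once, the authors deposited for each remaining tag its count (copy number) and its TPM, which is the count per 1000000 clean tags. Their program for matching tags was not given in the sources used here. Deposited counts were used, and TPM was computed again per gene over all clean tags.

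All CATG+17 tags of the transcripts of GENCODE release M21 (GRCm38) were taken on both strands. Tags were matched with at most 1 mismatch, exact matches first, and the counts of sense tags whose best matches all lay in 1 gene were added up for that gene. The two-sided Audic-Claverie test was adjusted by Benjamini and Hochberg over 14450 genes (FDR of at most 0.001, absolute log2 ratio of at least 1, 0.01 TPM for a gene at 0). With 1 library per line, the quasi-likelihood test of edgeR could not be fitted. Intervals are exact binomial (Clopper-Pearson) at 95%, and PCR copies without molecular identifiers are not independent molecules, so they cover counting error only. Depth sets the precision: the smallest deposited count is 2, and a gene at 0 was compared through a one-sided 95% Poisson limit. The calling was tested on simulated data that held counting noise only, so the spread between cultures was not part of that test. R 4.3.3 with edgeR 4.0.16 and DESeq2 1.42.0, were used, with matplotlib 3.10.9, scipy 1.17.1, pandas 2.3.3 and numpy 2.4.6 under Python 3.11.15.

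The 10 genes and the lists of paralogs, pathway genes and markers were chosen with earlier results of these data known, so no test is given over a list. The genes named are the 10, their paralogs and, from each pathway list, every called gene with at least 10 tags over both libraries and the most abundant uncalled gene; *Mapk3*, *Gfra1* and those named for a reversal, a gained call or a one-base version were added after their values were seen. Some genes of the pathway lists are counted but not reported here. Marker lists are given by their sums and defining genes. There were 14 alternatives for matching, scaling, filtering and testing, and 1 added after seeing the data.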

Additional observations from a re-analysis of the deposited data

Results flagged for a closer look

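Antisense tags, which enter no value above, were listed for the ERK genes. They were flagged as signal outside the main measurement, for each gene with more copies than a count of 0 allows, and their source was not tested. At *Dusp6* 336 antisense copies were listed in GC-1spg against 80 in GC-2spd (ts), 73.7% and 70.8% of its sense copies, with a log2 ratio of -1.97 (95% interval -2.34 to -1.61) beside -1.91 for the sense tags. Most came from 1 tag with 300 and 67 copies, at chr10:99267382-99267402, which reads from the CATG site of the main sense tag in the other direction.
*Dusp6* antisense: CATGgagcaagttaattctcc

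*Spry2* had 261 and 132 antisense copies, more than its sense copies in both libraries, of which 1 tag gave 227 and 117. Their log2 ratio was -0.88 (-1.19 to -0.57), beside -0.15 for the sense tags of *Spry2*. *Spred1* had 107 and 76, at a log2 ratio of -0.39 (-0.84 to 0.05). *Etv5* had 4 and 31 and *Spry1* 4 and 21, higher in GC-2spd (ts) as their sense tags were, with log2 ratios of 3.06 (1.56 to 5.02) and 2.49 (0.93 to 4.50). *Dusp5* had 17 and 21, at a log2 ratio of 0.41 (-0.59 to 1.42) beside 1.08 for its sense tags. *Spred2* had 19 and 14, and *Etv4* 8 and 4. Without strand these copies would have been added to the gene: counted together, sense and antisense left all calls of the 10 genes as they were, and moved the log2 ratio of their sum from -0.17 to -0.37.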

How the results depend on the processing

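With 1 library per line no replicate could be left out, and no difference has a replicate check. No paired analysis was possible because there is 1 library per line. Scaling: TMM moved every log2 ratio by -0.17, and the share of called genes that were higher from 59.8% to 47.2%. The log2 ratio of the summed 10 genes was -0.34 with TMM and -0.33 with DESeq2 size factors, 0.0648, of the opposite sign, with exact matches only, and -0.37 with antisense tags added. *Dusp5* was not called with TMM, DESeq2 size factors or the total of unambiguous sense tags. The ERK substrates called were 5 with TMM, and the Ras inhibitors called were 1 with the site nearest the 3′ end only.

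edgeR's exact test with an assumed biological coefficient of variation (BCV) set how far calls last if cultures vary. At a BCV of 0.2 it called 1000 genes, 511 higher and 489 lower; of the 10 genes *Spry1* was the 1 called higher and *Dusp6* stayed lower. In the lists flagged as changed it called 0 paralogs, 1 gene of Ras activation and 0 Ras inhibitors. It also called 1 of Raf, MEK, ERK and scaffolds, 1 ERK substrate and 3 other ERK targets. The FGF receptor and GDNF lists were not flagged as changed at this setting and are not given. At 0.4 it called 244 genes, 108 higher and 136 lower, and 0 of the 10 genes in either direction, where the Audic-Claverie test called 4; called were 0 paralogs, 1 of Ras activation, 0 Ras inhibitors, 0 of Raf, MEK and ERK, 0 substrates, 0 other targets, 0 FGF receptors and 1 of the GDNF list.

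Directions reversed for *Spred2* with exact matches (3.48); *Spry4* with the 3′ site (-0.22), TMM (-0.15), DESeq2 (-0.14) and sense totals (-0.0643); *Nf1* (0.23) and *Araf* (0.0477) with the longest transcript; *Fgfr3* with antisense tags added (-0.16); and *Rps6ka2* and *Fosl1* with TMM (-0.0720) and DESeq2 (-0.0617). The cause was not tested. Calls were gained by *Ets1*, at 3.52 with exact matches only (0.42 before), *Fosl1*, at 1.41 with sense matches preferred (249 and 615 tags in place of 2 and 2) and 1.42 with the 3′ site, *Frs2*, at 1.17 with the 3′ site, and *Elk3*, at 1.11 with antisense tags added. Among the values of single genes 1139 kept direction and call, 67 lost and 5 gained a call.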

Other observations

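The one-base versions of the *Spred2* tag led to a count over all genes, made after that value was seen. With at least 20 copies each, 91 tags in 91 genes had their reference version in GC-2spd (ts) alone and a version with 1 mismatch in GC-1spg alone, and 0 had the opposite arrangement. For a further 29 tags both libraries had the mismatched version and neither the reference. At a minimum of 10 copies these counts were 134, 0 and 41, and at 50 copies 58, 0 and 17. *Spred2* was the 1 gene of all the lists used here among the 91. Tags with 1 mismatch gave 3.11% of the unambiguous sense copies in GC-1spg against 1.72% in GC-2spd (ts). Of 9594 genes with at least 30 tags, counting exact matches only moved the log2 ratio by more than 1 upwards in 154 and downwards in 25.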
